A study of Mus musculus with 9 samples.

Results

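The genes described here are 28 genes of cholesterol synthesis, its control and the handling of sterols, read from the deposited gene count table by their symbols. All 28 were among the 24394 gene symbols of the table, and all 28 passed the filter on low counts and were among the 15296 genes tested. Of these, 18 encode enzymes, 7 of the mevalonate pathway and 11 of the steps from the making of squalene to cholesterol. A further 5 control the pathway and 5 carry, esterify, export or turn over sterols. The genes were measured in polyadenylated RNA from the postmortem hippocampus of young mice of the inbred strain C57BL6/J, in 9 libraries that form 3 groups of 3. Sham mice were given saline. The doxorubicin group received injections of doxorubicin, a cancer drug of the anthracycline class that damages DNA through topoisomerase. The MitoQ group received the same drug and a supplement of MitoQ, an antioxidant built to enter mitochondria. A group given MitoQ without doxorubicin was not analysed here. The labels do not state dose, timing, sex or exact age, or that each library came from its own mouse. The p-values therefore speak only to the variation among these 9 samples, and that variation may be technical.

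The brain makes nearly all of its own cholesterol, because lipoproteins of the blood do not cross the blood-brain barrier. Acetyl-CoA is turned into isoprenoid units, these are joined to squalene, and squalene is epoxidised, closed into lanosterol and trimmed to cholesterol. When sterol in the endoplasmic reticulum is low, SCAP carries the SREBP transcription factors to the Golgi, where they are cut, and their released part switches on the genes of the enzymes. INSIG proteins hold SCAP back when sterol is plentiful. In the adult brain, surplus cholesterol is hydroxylated by CYP46A1 in neurons or handed to lipoproteins by ABCA1 and ABCG1, transporters whose genes are targets of the oxysterol receptors LXR.

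The promoters of 5 of the genes are shown as examples, those of 3 enzymes and of the handling genes Abca1 and Cyp46a1. Each is the 150 bases before the RefSeq transcript start on GRCm38.p6, written 5′ to 3′ on the strand of the gene. The enzymes shown are the 3 with the widest range over the 9 libraries among the 6 that have a single listed start and no protein-coding exon in those bases. Mvd ranged 2.02-fold and Hmgcs1 1.87-fold. Sc5d, at 1.445-fold, ranged little more than Abca1, at 1.38-fold, and Cyp46a1 ranged 1.13-fold. Capitals mark matches to the CCAAT box (CCAAT, or ATTGG on the other strand), bound by NF-Y, and to a core of the sterol regulatory element (TCACNCCAC, either strand), bound by SREBP. The regions are chr8:122443423-122443572 for Mvd and chr9:42264301-42264450 for Sc5d, both on the minus strand, and chr13:119690201-119690350 for Hmgcs1 on the plus strand. Those of Abca1 (minus strand) and Cyp46a1 (plus strand) are chr4:53159896-53160045 and chr12:108334166-108334315.
Mvd: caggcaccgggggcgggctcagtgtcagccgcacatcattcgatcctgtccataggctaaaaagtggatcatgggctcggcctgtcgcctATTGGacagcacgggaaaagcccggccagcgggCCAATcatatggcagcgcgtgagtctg
Hmgcs1: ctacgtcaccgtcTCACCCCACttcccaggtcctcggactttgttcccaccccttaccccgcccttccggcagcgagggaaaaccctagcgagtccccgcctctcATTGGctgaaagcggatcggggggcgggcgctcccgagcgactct
Sc5d: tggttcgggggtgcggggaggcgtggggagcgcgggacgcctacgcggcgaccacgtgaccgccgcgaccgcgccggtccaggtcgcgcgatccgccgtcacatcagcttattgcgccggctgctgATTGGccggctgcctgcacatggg
Abca1: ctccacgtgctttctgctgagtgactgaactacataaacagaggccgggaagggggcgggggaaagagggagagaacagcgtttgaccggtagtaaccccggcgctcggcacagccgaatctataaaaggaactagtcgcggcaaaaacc
Cyp46a1: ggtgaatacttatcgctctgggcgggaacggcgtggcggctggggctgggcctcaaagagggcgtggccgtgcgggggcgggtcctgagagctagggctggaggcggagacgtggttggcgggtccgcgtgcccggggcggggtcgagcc

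In the 150 bases shown, Mvd had 2 CCAAT boxes, Hmgcs1 had 1 beside 1 sterol element core, Sc5d had 1, and Abca1 and Cyp46a1 had none of either. The longer windows described next held 4 for Hmgcs1 and 1 for Cyp46a1. The set of RefSeq promoter windows used here, of 300 bases each (250 before to 50 after the start), covered 23 of the 28 genes, with more than 1 start for some. It held no window for Sqle, Fdps, Fdft1, Abcg1 and Stard4. Among the 18 windows of 15 enzymes, 14 held a CCAAT box (77.8%) and 9 held 2 or more (50%). Among the 13 windows of 8 control and handling genes, 7 held a CCAAT box (53.8%) and 1 held 2 or more (7.69%). Over all 32851 windows of the table the shares were 37.4% and 11.7%. The sterol element core was found in 1 of the 31 windows, that of Hmgcs1, against 1.24% of all windows. No CCAAT box overlapped that core. The number of boxes did not follow the range over libraries gene by gene: Mvk, which ranged 1.23-fold, held 5 and Nsdhl, which ranged 1.19-fold, held 4, whereas Cyp51, which ranged 2.05-fold, held 1. Of the 3 windows of Dhcr7, 1 held 2 boxes and the others held 0. These are matches of letters and were not tested as binding sites. Only this form of the sterol element core was used, so a window without a match may still hold another form of the element.

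Library totals ran from 24672520 to 34950989 counts in sham, from 25525944 to 28050173 with doxorubicin and from 32432157 to 41214335 with MitoQ, so the MitoQ libraries were on average the deepest. A count of 3 corresponds to 0.072 to 0.12 CPM (the usual counts-per-library-size unit, with sizes scaled by TMM), well under every value given here. Doxorubicin replicate 3 stood apart from the other libraries: it was the highest of the 9 for 21.7% of the genes tested and the lowest for 22%. Plin4, a lipid droplet gene named after its values were seen, was at 54.8 CPM there and at 1.6 to 4.87 CPM in the other 8. Choroid plexus markers also differed widely among libraries and are given further on.

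Per length of exon, the most abundant of the genes in sham hippocampus was Cyp46a1, the neuronal cholesterol hydroxylase, at 76.6 ± 3.17 CPM per kb (SD, n = 3). Hmgcs1, which makes HMG-CoA at the head of the pathway, followed at 68.7 ± 13.6 CPM per kb, and its wide spread took in the level of Cyp46a1. The transcription factor gene Srebf2 stood at 49.8 ± 2.21 CPM per kb and Srebf1, its relative that mainly drives fatty acid genes, at 15.8 ± 1.18 CPM per kb. The methylsterol oxidase gene Msmo1, at 36.6 ± 8.19 CPM per kb, and the SREBP escort gene Scap, at 28.4 ± 1.44 CPM per kb, came next. Insig1, at 24.4 ± 6.81 CPM per kb, lay above Insig2, at 15.3 ± 0.871 CPM per kb, on average, but the sham libraries of Insig1 spread widely. At the low end were Idi1, the isomerase that readies isoprenoid units for joining, at 2.25 ± 0.775 CPM per kb, and Stard4, which moves sterol through the cytosol, at 2.43 ± 0.688 CPM per kb, and these neighbours did not differ beyond their spread.

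**Figure D1:**
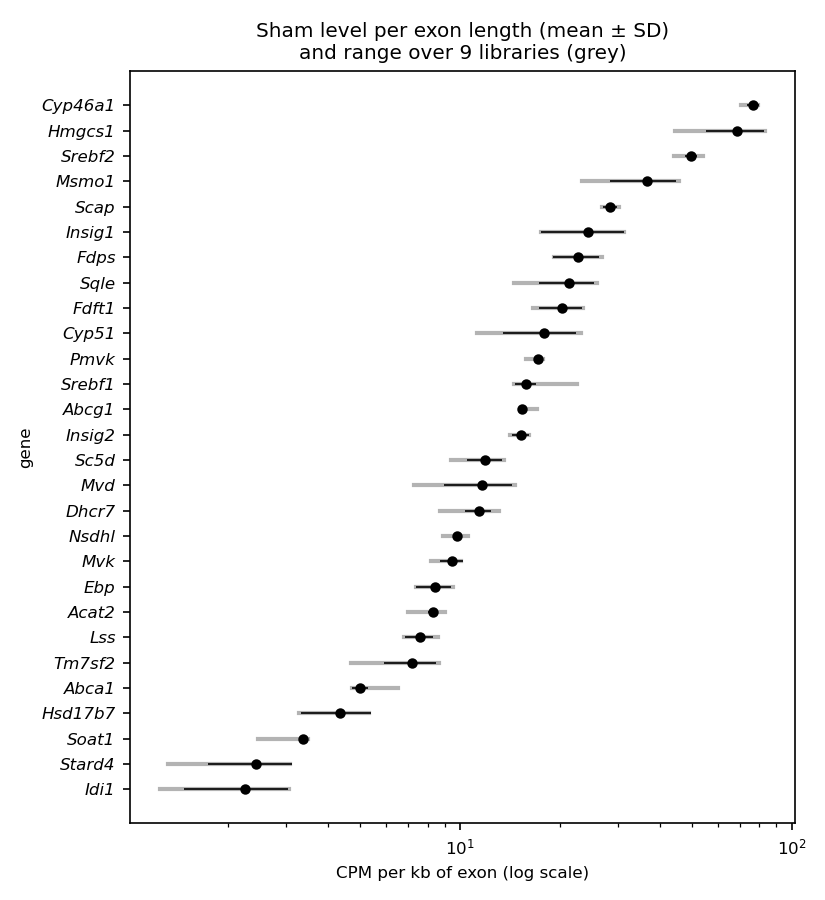
Level of the 28 genes in sham hippocampus, in CPM per kb of exon on a log axis; points and black bars are mean ± SD over 3 sham libraries and grey bars the range over all 9 libraries. Cyp46a1 is highest at 76.6 and Idi1 lowest at 2.25, and the grey bars are widest for enzymes such as Idi1, Cyp51 and Mvd and narrow for Cyp46a1, Scap and Abcg1.

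Some of these values may share reads with other genes, judged by the overlap of annotated exons. Exons of Fdps overlapped by 77.4% with Gm43738 on the same strand, so its counts are uncertain. Exons of Fdft1 overlapped by 20.9% with Ctsb, those of Scap by 18.6% with 5830462I19Rik, those of Hmgcs1 by 16% with Gm48342 and those of Idi1 by 10.7% with Gm48574, all on the opposite strand. Whether the counting used strand is not stated. For the remaining genes the overlap was at most 8.2%, and 19 had none.

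The main pattern in the data was among the libraries of each group and not between the groups. The synthesis enzymes lay high or low together, and the libraries that carried them high or low belonged to all 3 groups. Relative to the sham mean, the mean log2 CPM of the 18 enzymes was -0.03, 0.18 and -0.15 in sham replicates 1, 2 and 3. It was 0.08, -0.06 and -0.36 in doxorubicin replicates 1, 2 and 3, and -0.18, 0.01 and 0.06 in MitoQ replicates 1, 2 and 3. Sham replicate 2 was therefore the highest library and doxorubicin replicate 3 the lowest, and the 3 groups overlapped. The group values were 0 ± 0.17 in sham, -0.11 ± 0.23 with doxorubicin and -0.03 ± 0.13 with MitoQ (SD, n = 3). The 10 control and handling genes spanned less, from -0.10 in sham replicate 3 to 0.08 in doxorubicin replicate 1, with group values of 0 ± 0.09, 0 ± 0.07 and 0.02 ± 0.04.

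**Figure D2:**
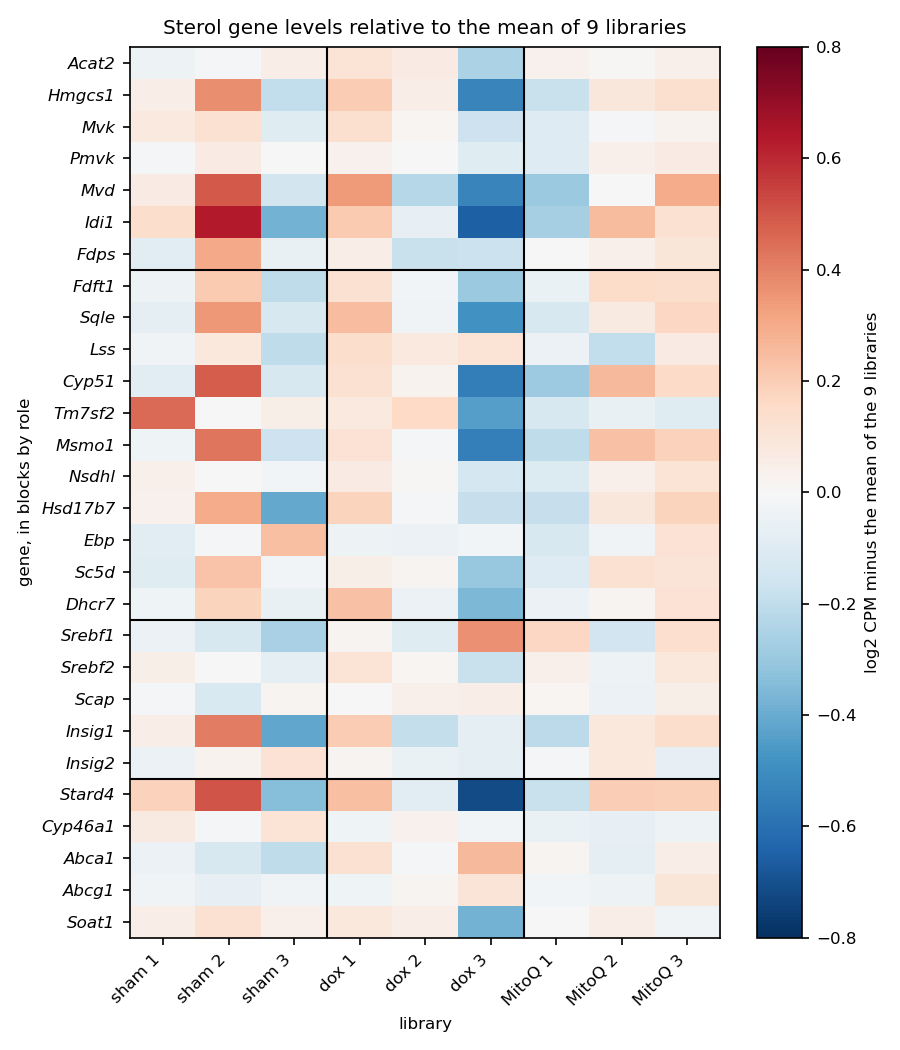
Levels of the 28 genes (rows, in blocks by role) in the 9 libraries (columns), as log2 CPM minus the mean of the gene over the 9 libraries, red for higher and blue for lower. Most enzyme rows are red in sham replicate 2 and blue in doxorubicin replicate 3, Stard4 and Insig1 share the red of sham replicate 2, and Srebf1 and Abca1 are red in doxorubicin replicate 3.

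Gene by gene, the same libraries recurred. Of the 18 enzymes, 10 had their highest level of all 9 libraries in sham replicate 2, against 14.5% of all genes tested. Their lowest level fell in doxorubicin replicate 3 for 13 of 18, against 22% of all genes tested. Within the groups, sham replicate 2 was the highest sham library for 14 enzymes (34.5% of all genes), doxorubicin replicate 1 the highest doxorubicin library for 16 (32%) and doxorubicin replicate 3 the lowest for 15 (39.5%). MitoQ replicate 1 was the lowest MitoQ library for 16 enzymes (33.3% of all genes) and MitoQ replicate 3 the highest for 12 (33.9%). For the 10 control and handling genes the corresponding counts were 3, 5, 4, 2 and 6. These shares are a description of 9 libraries, and no test was made of them.

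**Figure D3:**
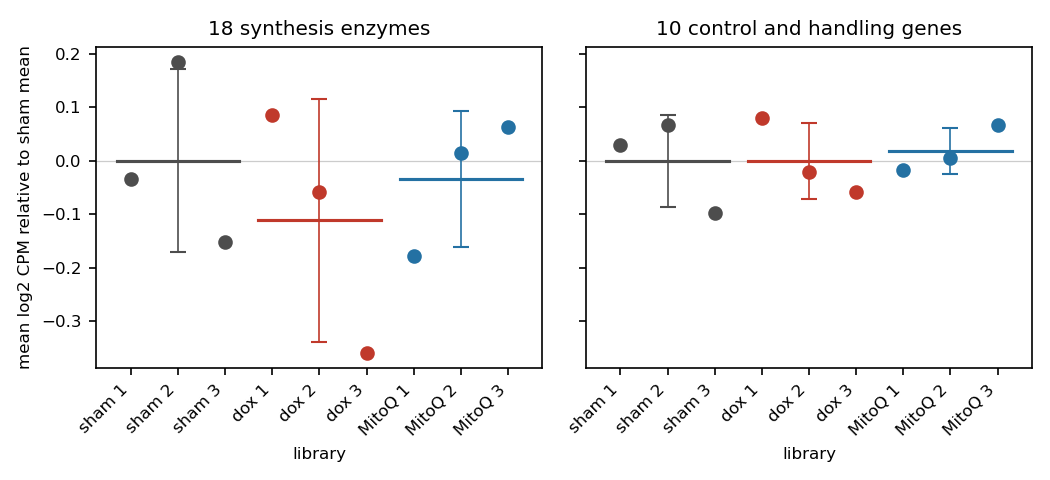
Mean log2 CPM relative to the sham mean in each library (points) for the 18 synthesis enzymes (left) and the 10 control and handling genes (right); lines and bars are group mean ± SD over 3 libraries. The enzymes range from -0.36 in doxorubicin replicate 3 to 0.18 in sham replicate 2, and the groups overlap in both panels.

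The enzymes with the widest range came from different points of the pathway. Idi1 was at 6.57, 9.28 and 4.6 CPM in sham replicates 1, 2 and 3, at 6.91, 5.71 and 3.79 CPM in doxorubicin replicates 1, 2 and 3, and at 4.96, 7.13 and 6.49 CPM in MitoQ replicates 1, 2 and 3. Its highest library, sham replicate 2, was 2.45-fold above its lowest, doxorubicin replicate 3, while the 3 groups overlapped. Cyp51, the lanosterol demethylase gene, was at 61.5, 91 and 59.6 CPM in sham, at 70.8, 66.4 and 44.4 CPM with doxorubicin and at 53.1, 77.7 and 72.4 CPM with MitoQ, a range of 2.05-fold between the same libraries. Mvd, whose product removes a carboxyl group from mevalonate diphosphate, was at 19.2, 25.8 and 16.6 CPM in sham, at 23.3, 15.7 and 12.8 CPM with doxorubicin and at 14.9, 18.3 and 22.6 CPM with MitoQ. Its 3 groups also overlapped, and its range was 2.02-fold. Msmo1 was at 68.2, 93.9 and 62.4 CPM in sham, at 75.7, 69.5 and 47.8 CPM with doxorubicin and at 60.7, 82.2 and 79.6 CPM with MitoQ.

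Hmgcs1 was at 233, 289.5 and 195 CPM in sham, at 257, 232 and 155 CPM with doxorubicin and at 198, 239 and 244 CPM with MitoQ. Sqle, the squalene epoxidase gene and a control point of the pathway, was at 53.5, 71.4 and 51.5 CPM in sham, at 66.8, 55.2 and 40.2 CPM with doxorubicin and at 51.4, 59.1 and 63.2 CPM with MitoQ. In both genes sham replicate 2 was highest, doxorubicin replicate 3 lowest and the groups overlapped. Fdft1, the squalene synthase gene that commits isoprenoids to sterol, had the same extremes at 87.1 and 61.4 CPM, and Sc5d, a late desaturase gene, at 66 and 45.7 CPM. Dhcr7, which encodes a reductase of the final steps, had its lowest level in doxorubicin replicate 3 at 28.8 CPM and its highest in doxorubicin replicate 1 at 43.4 CPM. Hsd17b7, a ketoreductase gene of the demethylation steps, ranged from 16.5 CPM in sham replicate 3 to 26.9 CPM in sham replicate 2.

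Not every enzyme of the pathway ranged as widely or shared these extremes. Pmvk, the phosphomevalonate kinase gene, ranged from 27.1 to 30.5 CPM over the 9 libraries, a range of 1.12-fold. Nsdhl, a decarboxylase gene of the demethylation steps, ranged from 19.3 to 22.9 CPM and Mvk, the mevalonate kinase gene, from 16.4 to 20.1 CPM. Acat2, the thiolase gene of the first step, ranged from 17.5 to 22.5 CPM. Ebp, the sterol isomerase gene, was highest in sham replicate 3 at 16.6 CPM and lowest in MitoQ replicate 1 at 12.9 CPM, and so did not share the extremes of Hmgcs1. Tm7sf2, a sterol reductase gene, was highest in sham replicate 1 at 14.7 CPM and lowest in doxorubicin replicate 3 at 7.94 CPM, a range of 1.85-fold. The within-group SD of log2 CPM was 0.41 (0.415) for Idi1, above 90.1% of all genes tested, and 0.07 for Pmvk, above 17.6%. Its median was 0.19 over the 18 enzymes and 0.13 over all genes tested.

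Among the control genes, Insig1, itself a target of SREBP, varied with the enzymes in sham, at 65.6, 84.2 and 47.5 CPM. It was at 72.9, 55.5 and 60.4 CPM with doxorubicin and at 54.7, 67 and 69.7 CPM with MitoQ, so its lowest library was sham replicate 3. Insig2 ranged from 41.8 to 47.8 CPM and Scap from 113 to 128 CPM. Srebf2 ranged from 225 CPM in doxorubicin replicate 3 to 274 CPM in doxorubicin replicate 1. Srebf1 was highest in doxorubicin replicate 3, at 96.8 CPM against 62.7 to 84.4 CPM in the other 8 libraries, where Srebf2 and most enzymes were lowest.

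The handling genes divided in the same way. Stard4, an SREBP target, was at 12.9, 16.1 and 8.92 CPM in sham, at 13.4, 10.7 and 6.89 CPM with doxorubicin and at 10, 13 and 12.9 CPM with MitoQ, with the extremes of the enzymes and a range of 2.33-fold. In Soat1, which encodes the enzyme that esterifies cholesterol, doxorubicin replicate 3 stood at 20.7 CPM and the other 8 libraries at 26.3 to 29.3 CPM. Cyp46a1 had the smallest within-group SD of the 28 genes, 0.04, above 2.65% of all genes tested, and Abcg1, an efflux transporter gene, had 0.06. Abca1 and Abcg1 were both highest in doxorubicin replicate 3, at 67 and 117 CPM, though Abcg1 was nearly as high in MitoQ replicate 3, at 116 CPM. LXR activity was not tested.

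**Figure D4:**
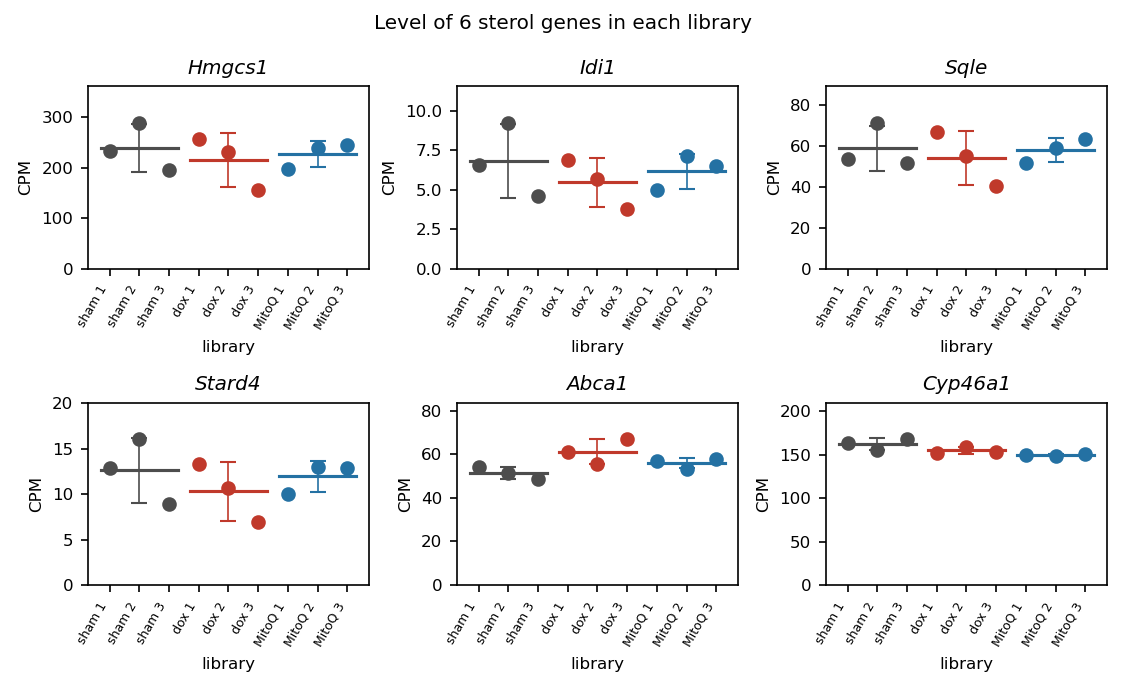
Level in CPM of Hmgcs1, Idi1, Sqle, Stard4, Abca1 and Cyp46a1 in each library (points), with group mean ± SD over 3 libraries (lines and bars) and axes from 0. The first 4 are highest in sham replicate 2 and lowest in doxorubicin replicate 3, Abca1 is higher in all 3 doxorubicin libraries (55.4 to 67) than in sham (48.6 to 54.2), and Cyp46a1 stays between 149 and 168.

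After doxorubicin, 17 of the 18 enzymes and 23 of the 28 genes were lower than in sham on average, with a median log2 fold change of -0.10 over the enzymes and -0.07 over the 28 genes. The efflux gene Abca1 was on the higher side, at 61.1 ± 5.77 against 51.3 ± 2.79 CPM, as was Srebf1, at 81.2 ± 13.8 against 68 ± 5.07 CPM (SD, n = 3). None of these differences passed the threshold. EdgeR's quasi-likelihood test with Benjamini-Hochberg adjustment called 0 of the 28 genes and 0 of all 15296 (background 0%), and the adjusted p of the 28 ran from 0.485 to 0.995. At an unadjusted p under 0.05 stood 1 of the 28 genes, Abca1, and 1350 of all genes (8.83%, with 4.33% on the higher and 4.49% on the lower side). Over all genes tested 51.1% were higher and 48.9% lower, and the median was 0.00 (0.004). DESeq2 called 0 of the 28 genes and 44 of all genes, limma-voom 0 and 0.

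The count of lower enzymes rested on doxorubicin replicate 3, and their median on that library and sham replicate 2. Without doxorubicin replicate 3, 9 of 18 enzymes were lower and 9 higher, with a median of 0.02 (0.016), and 14 of the 28 genes were lower. Without sham replicate 2, 14 enzymes were lower, with a median of -0.02. Without doxorubicin replicate 1, 17 were lower and the median was -0.20, and without sham replicate 3 it was -0.17 with 15 lower.

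Abca1 (chromosome 4, 53030787 to 53159895, minus strand) was at 54.2, 51.2 and 48.6 CPM in sham and at 60.9, 55.4 and 67 CPM with doxorubicin, so each doxorubicin library lay above each sham library. Its log2 fold change was 0.25 (SE 0.08), a 1.19-fold difference, with an edgeR adjusted p of 0.485. It was the only one of the 28 genes whose doxorubicin and sham libraries did not overlap, where 13% of all genes tested did not (6.2% above sham and 6.79% below). Srebf1 (chromosome 11, 60199089 to 60222581, minus strand) was at 72.8, 68.7 and 62.7 CPM in sham and at 76.4, 70.4 and 96.8 CPM with doxorubicin, so the groups overlapped. Its log2 fold change was 0.26 (SE 0.12, edgeR adjusted p = 0.567). Lss, which closes epoxidised squalene into lanosterol, was the only enzyme on the higher side. It averaged 39.4 ± 0.873 CPM with doxorubicin and 35.3 ± 3.49 CPM in sham, a log2 difference of 0.15 (SE 0.09, edgeR adjusted p = 0.612).

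On the lower side, Fdps, the farnesyl diphosphate synthase gene, averaged 29.5 ± 2.77 CPM with doxorubicin and 33 ± 5.15 CPM in sham, a log2 difference of -0.16 (SE 0.11, edgeR adjusted p = 0.668), with the overlap with Gm43738 given above. Tm7sf2 had a log2 fold change of -0.23 (-0.225, SE 0.17), Soat1 of -0.14 (SE 0.11) and Cyp46a1 of -0.06 (-0.065, SE 0.05), with edgeR adjusted p-values of 0.696, 0.711 and 0.69. Scap stood at 126 ± 2.73 against 120 ± 6.09 CPM (edgeR adjusted p = 0.72). The most negative values were those of Idi1 (-0.33, SE 0.27) and Stard4 (-0.30, SE 0.25), which also had the largest within-group spread. Across the 28 genes the SE ran from 0.05 for Cyp46a1 to 0.27 for Idi1, so differences of the sizes seen in Idi1 and Stard4 were not resolved at 3 libraries a group. Srebf2 (-0.003, SE 0.07) and Hsd17b7 (-0.005, SE 0.17) were nearest to 0.

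Of the 8 log2 fold changes with the smallest p after doxorubicin, that of Abca1 stayed within 1.5 times when any 1 library was left out, from 0.18 to 0.31. The others moved further. Without doxorubicin replicate 3, Srebf1 was at 0.11, Soat1 at -0.01 (-0.006) and Tm7sf2 at -0.06. Without doxorubicin replicate 2, Tm7sf2 was at -0.35, and without sham replicate 1 at -0.07. Without sham replicate 2, Fdps was at -0.03, Scap at 0.02 and Cyp46a1 at -0.10. Without sham replicate 3, Lss was at 0.08, and without doxorubicin replicate 1, Soat1 was at -0.22.

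**Figure D5:**
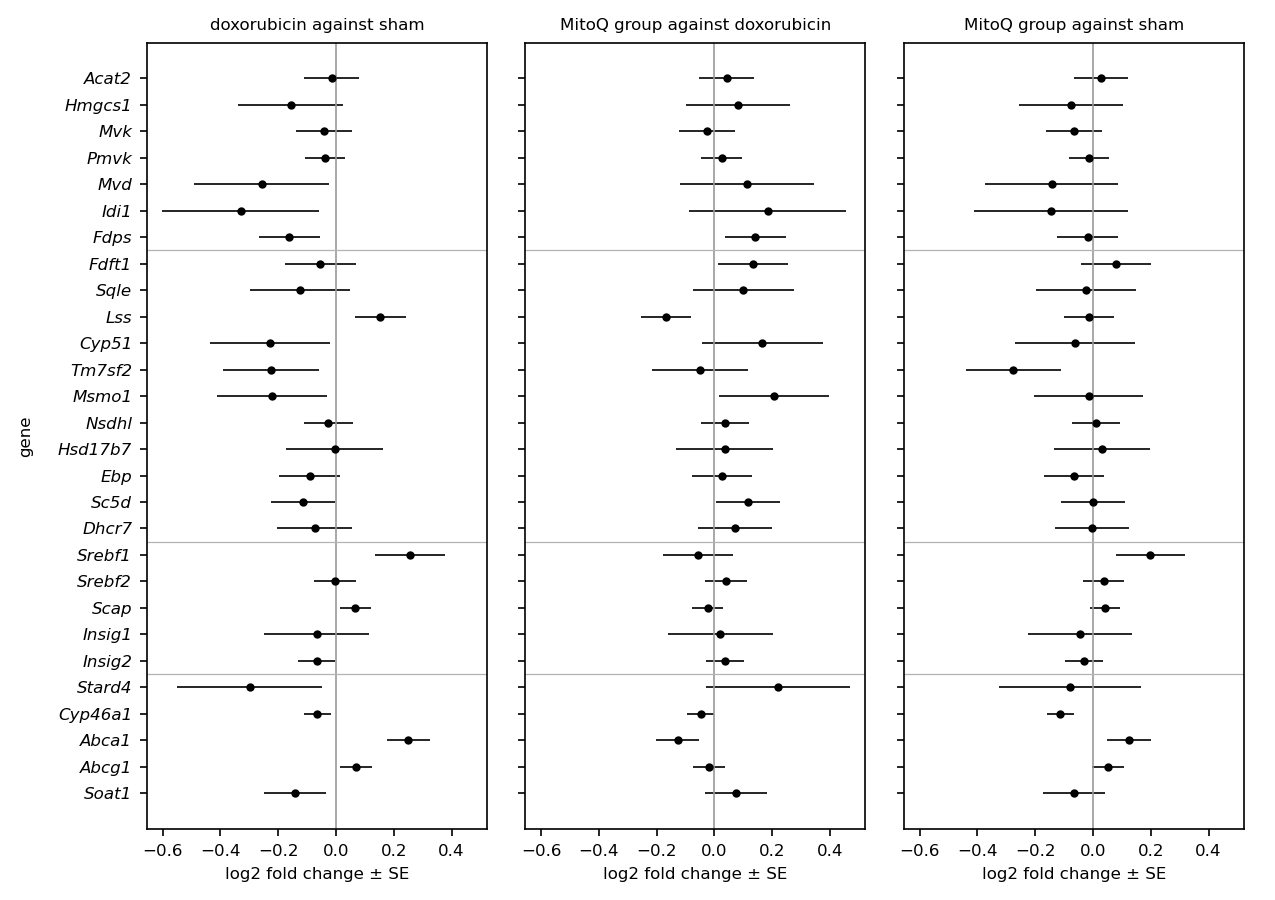
Fitted log2 fold change with its SE for each of the 28 genes in the 3 comparisons, in blocks by role. After doxorubicin most enzymes lie left of 0 with SEs that reach or nearly reach it, Abca1 and Srebf1 lie right of 0, and no gene passed the threshold in any panel.

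With MitoQ added to doxorubicin, 15 of 18 enzymes and 20 of the 28 genes were higher than with doxorubicin alone, with medians of 0.08 (0.075) and 0.04. This comparison shares the doxorubicin libraries with the previous one. EdgeR's test called 0 of the 28 genes and 0 of all genes tested (background 0%), at adjusted p-values of 0.968 to 0.997. At an unadjusted p under 0.05 stood 0 of the 28 genes and 505 of all genes (3.3%, with 1.88% on the higher and 1.43% on the lower side). Over all genes 49.9% were higher and 50.1% lower, and the median was 0. DESeq2 called 0 of the 28 genes and 5 of all genes, limma-voom 0 and 0. Without doxorubicin replicate 3, 5 of 18 enzymes were higher and the median was -0.04. Without MitoQ replicate 3, 10 were higher, with a median of 0.03 (0.025). Without doxorubicin replicate 1, 17 were higher (median 0.20), and without MitoQ replicate 1, 16 were (median 0.15).

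Lss had the smallest p of the 28 genes here, at 35.3, 31.8 and 38.1 CPM with MitoQ and at 40.2, 38.5 and 39.3 CPM with doxorubicin alone. Each MitoQ library lay below each doxorubicin library (log2 fold change -0.17, SE 0.09, edgeR adjusted p = 0.968). Cyp46a1 likewise did not overlap, at 149.9, 149 and 151 CPM against 152, 159.6 and 154 CPM, but the log2 fold change was -0.05 (SE 0.05, edgeR adjusted p = 0.968). These 2 of the 28 genes were the ones whose groups did not overlap, against 9.71% of all genes (4.73% above and 4.98% below). Abca1 averaged 56 ± 2.51 CPM with MitoQ and 61.1 ± 5.77 CPM without, a log2 difference of -0.13 (SE 0.08), with MitoQ replicates 1 and 3 within the doxorubicin range and replicate 2 below it. Fdps (0.14, SE 0.11), Fdft1 (0.14, that is 0.135, SE 0.12), Msmo1 (0.21, SE 0.19), Sc5d (0.12, SE 0.11) and Stard4 (0.22, SE 0.25) were higher on the log2 scale, each with an edgeR adjusted p of 0.968.

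Each of these 8 values moved by over 1.5 times when some single library was left out. Without doxorubicin replicate 3, Stard4 was at -0.003, Fdft1 at 0.03, Msmo1 at 0.03, Sc5d at 0.01 and Abca1 at -0.06 (-0.055). Without doxorubicin replicate 1, Stard4 was at 0.45, Fdft1 at 0.23, Msmo1 at 0.34, Sc5d at 0.18 and Fdps at 0.22. Without doxorubicin replicate 2, Abca1 was at -0.19 and Cyp46a1 at -0.03. Without MitoQ replicate 1, Stard4 and Msmo1 were both at 0.33 and Sc5d at 0.18. Without MitoQ replicate 2, Msmo1 was at 0.13, Sc5d at 0.08 (0.075) and Lss at -0.10.

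Set against sham, the MitoQ group had 13 of 18 enzymes and 18 of the 28 genes lower, with medians of -0.02 in both (-0.017). The comparison shares the sham and MitoQ libraries with the 2 above. EdgeR's test called 0 of the 28 genes and 0 of all genes (background 0%), each of the 28 at an adjusted p of 1. At an unadjusted p under 0.05 stood 1 of the 28, Cyp46a1, and 451 of all genes (2.95%, with 1.18% on the higher and 1.77% on the lower side). Of all genes tested, 47.8% were lower and 52.2% higher. DESeq2 called 0 of the 28 genes and 2 of all genes, limma-voom 0 and 0. Without sham replicate 2, 15 of 18 enzymes were higher and the median was 0.08, and without MitoQ replicate 1, 12 were higher (median 0.03). Without sham replicate 3, 16 were lower (median -0.10).

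Cyp46a1 (chromosome 12, 108334381 to 108362234, plus strand) was at 164, 155 and 168 CPM in sham and at 149.9, 149 and 151 CPM with MitoQ. Each MitoQ library lay below each sham library, by 1.08-fold on average (log2 fold change -0.11, SE 0.05, edgeR adjusted p = 1). Its levels were thus 162 ± 6.71, 155 ± 3.88 and 150 ± 1.01 CPM in sham, doxorubicin and MitoQ (SD, n = 3). Tm7sf2 did not overlap either, at 9.83, 10.3 and 10 CPM with MitoQ and 14.7, 10.8 and 11.1 CPM in sham (log2 fold change -0.28, that is -0.275, SE 0.16). Sham replicate 1 was the high library of that gene. These 2 of the 28 compare with 9.11% of all genes whose groups did not overlap (4.11% above and 5% below). Srebf1 (0.20, SE 0.12) and Abca1 (0.12, SE 0.08) were on the higher side with overlapping groups. Abcg1 (0.05), Scap (0.04), Mvk (-0.07) and Fdft1 (0.08) had still smaller log2 differences, and all 6 had an edgeR adjusted p of 1. Of the 8 values of this comparison, those of Cyp46a1 (-0.15 to -0.09) and Srebf1 (0.14 to 0.29) stayed within 1.5 times when any 1 library was left out. Tm7sf2 was at -0.12 without sham replicate 1 and Abca1 at 0.08 without sham replicate 3. Abcg1 was at 0.01 (0.008) without MitoQ replicate 3 and at 0.03 without sham replicate 2. Mvk was at -0.02 without sham replicate 2, at -0.13 without sham replicate 3 and at -0.03 without MitoQ replicate 1. Fdft1 was at 0.20 without sham replicate 2, at -0.02 without sham replicate 3, and at 0.14, 0.04 and 0.05 without MitoQ replicates 1, 2 and 3 in turn. Scap was at -0.004 without sham replicate 2, at 0.07 without sham replicate 3 and at 0.02 without MitoQ replicate 3.

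A test for any difference among the 3 groups also called 0 of the 28 genes by edgeR and 0 of all genes (background 0%), with a lowest adjusted p of 0.943. By edgeR's unadjusted p under 0.05, Abca1 was the 1 gene of the 28, against 5.11% of all genes. By DESeq2 41 of all genes were called and by limma-voom 0.

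Related genes of sterol and lipid metabolism, in 4 lists chosen with earlier results known, gave 0 calls by edgeR in each of the comparisons. Of the 12 fatty acid synthesis genes driven by SREBP-1, 3 were higher and 9 lower after doxorubicin (median -0.04), and Acaca (0.13, SE 0.06) and Fasn (0.13, SE 0.06), the carboxylase and synthase genes, had the smallest p, each with an edgeR adjusted p of 0.567. The list mean was lowest in doxorubicin replicate 3, at -0.16, and highest in sham replicate 2, at 0.06, the extremes of the enzymes. Its member Mid1ip1, which encodes a partner of acetyl-CoA carboxylase, was higher in each MitoQ library (106 to 112 CPM) than in each doxorubicin library (85.8 to 105.5 CPM), at an edgeR adjusted p of 0.968. The isoprenoid branch after farnesyl diphosphate, toward ubiquinone, dolichol and protein prenylation, had 4 of 12 higher after doxorubicin (median -0.01). Rce1, a protease gene of prenylated proteins, averaged 11.7 ± 0.172 CPM with doxorubicin and 13.6 ± 0.383 CPM in sham, a log2 difference of -0.22 (SE 0.10, edgeR adjusted p = 0.553). The list mean of this branch stayed between -0.04 and 0.04 in all 9 libraries and did not share the range of the enzymes.

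The machinery that cuts SREBP or degrades its partners had 6 of 11 tested genes higher after doxorubicin (median 0.02), and its list mean stayed between -0.04 and 0.06. Of 25 tested genes of sterol uptake, export, lipoproteins and oxysterols, 15 were higher (median 0.02). Among these, Abca2, a lipid transporter gene, was at 381, 406 and 448 CPM with doxorubicin and at 371, 338 and 344 CPM in sham. Each doxorubicin library lay above each sham library (log2 fold change 0.23, SE 0.07, edgeR adjusted p = 0.485). Osbpl1a, an oxysterol-binding protein gene, was at 132, 135 and 114 CPM against 147, 157 and 145 CPM, each doxorubicin library below each sham library (-0.24, SE 0.07, edgeR adjusted p = 0.485). With MitoQ, Cyp39a1, an oxysterol hydroxylase gene, was at 1.49 ± 0.107 against 1.06 ± 0.113 CPM with doxorubicin alone (0.49, SE 0.20, edgeR adjusted p = 0.968). Npc1, which exports cholesterol from lysosomes, was at 101 to 109.6 CPM with MitoQ and at 92.3 to 99.4 CPM in sham (0.17, SE 0.05, edgeR adjusted p = 1).

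The labelled tissue was checked against cell type markers, since the pathway is active in oligodendrocytes and astrocytes and Cyp46a1 is neuronal. All 10 neuronal, 12 oligodendrocyte and 10 astrocyte markers were tested. Their summed levels in sham, doxorubicin and MitoQ were 8934 to 9753, 9751 to 10200 and 9147 to 9810 CPM for neurons, and 5271 to 6354, 5509 to 6432 and 5561 to 6477 CPM for oligodendrocytes. For astrocytes they were 6404 to 6924, 6245 to 6772 and 6125 to 6956 CPM. In doxorubicin replicate 3, where most enzymes were lowest, these sums were 10130, 5983 and 6339 CPM, each within the range of the other 8 libraries. Single astrocyte markers went both ways there. Aqp4, the astrocytic water channel gene, stood at 97 CPM in that library and at 164 to 197 CPM elsewhere, and Gfap and S100b were also at their lowest. Aldoc, at 1163 CPM there and 809.7 to 1043 CPM elsewhere, Fgfr3 (153 against 101 to 133 CPM) and Aldh1l1 (65.3 against 45.4 to 63 CPM) were at their highest. In bulk tissue, fewer cells of a type and less RNA per cell cannot be told apart.

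Choroid plexus markers, 10 of 10 tested, summed to 89.8, 5128 and 101 CPM in sham, to 4203, 79.5 and 2196 CPM with doxorubicin and to 3567, 1382 and 5363 CPM with MitoQ. Within each group these sums were highest in sham replicate 2, doxorubicin replicate 1 and MitoQ replicate 3. The enzyme mean of each group was highest in the same libraries. The lowest library of each group differed between the choroid plexus sum and the enzyme mean. Doxorubicin replicate 3, where the enzyme mean was lowest, had the middle sum of its group. Fibroblast and meninges markers were 10 of 10 lower after doxorubicin. Their sums were 233 to 442 CPM in sham (highest in replicate 2), 161 to 344 with doxorubicin and 281 to 361 with MitoQ. Igf2 made up most of the highest sum of each group, with 232 (sham), 190 (doxorubicin) and 223 CPM (MitoQ). Those libraries also had the highest choroid plexus sums. The list mean did not overlap between sham (-0.19 to 0.23) and doxorubicin (-0.99 to -0.39). With MitoQ it ran from -0.51 to -0.10. Neocortical markers, 8 of 8 lower after doxorubicin, summed to 298 to 319, 194 to 233 and 224 to 273 CPM, and the lowest was doxorubicin replicate 3. Microglial markers, 10 of 10 lower after doxorubicin, summed to 483 to 510, 454 to 472 and 473 to 513 CPM. Endothelial markers, 7 of 8 lower, summed to 173 to 215, 153 to 216 and 144 to 201 CPM. The marker lists were chosen with earlier results of these data known, so the counts of lower markers only describe them. Of all genes tested, 48.9% were lower after doxorubicin. Of 6 red blood cell markers, the 4 globin genes are listed at 0 in all 9 libraries, so the sum of at most 6.36 CPM holds Alas2 (1.86 to 5.88 CPM) and Slc4a1 alone and does not measure blood. The part of these markers in the levels of the sterol genes was not tested.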

How the data were processed

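Read counts per gene symbol were used as deposited by the authors for 9 polyadenylated RNA libraries, grouped by sample titles. STAR, DESeq2 and mm10 are named in the submitters' processing notes; no source used here gives their versions, the counting program, its strand setting or its annotation. Libraries were made with a TruSeq kit, per the labels' protocols. Of 24421 entries, 27 carry a date in place of a symbol (0.309% to 0.322% of counts) and stayed out of the tests; 0 columns belong to no sample.

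Genes were kept by filterByExpr (minimum count 10), scaled by TMM and fitted together over 9 libraries by the quasi-likelihood F test of edgeR 4.0.16 in R 4.3.3, with Benjamini-Hochberg adjustment over 15296 genes and a threshold of 0.05. Standard errors were derived from the fold change and F (the size of the former over the root of the latter). List means use log2 CPM with 1 count added. Exon lengths and coordinates come from GENCODE M21 (mm10), promoters from RefSeq (GRCm38.p6). The procedure was tested on simulated data. Alternatives were median-of-ratios scaling, DESeq2 1.42.0, limma-voom 3.58.1, no filter, a minimum of 1 CPM in 3 libraries, a threshold of 0.1, a fit of 2 groups alone, the replicate number as a block, each library left out in turn and, added after seeing the data, 2 libraries left out together. The 28 genes and the lists were chosen with earlier results of these data known. In each comparison, tests are given for the 8 of the 28 with the smallest p and levels for the others; of each related list, genes were named from the 2 with the smallest p. Idi1, Stard4, Srebf2 and Hsd17b7 were added for doxorubicin against sham after their values were seen. A looser form of the sterol element core and the E-box CACGTG were also counted over all promoter windows and not used. matplotlib 3.10.9 and Python 3.11.15 drew the figures.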

Additional observations from a re-analysis of the deposited data

How the results depend on the processing

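Under every alternative run, 0 of the 28 genes were called in each comparison. Of 408 values of the 24 named gene comparisons, 402 kept their direction and their side of the threshold and 6 turned. Of these, 3 turned without 1 library: Stard4 (MitoQ against doxorubicin) at -0.003 without doxorubicin replicate 3, in a range of -0.003 to 0.453, Scap (MitoQ against sham) at -0.004 without sham replicate 2, in a range of -0.004 to 0.067, and Fdft1 (MitoQ against sham) at -0.016 without sham replicate 3, in a range of -0.016 to 0.197. The median log2 fold change of the 28 genes ranged over the fits without 1 library from -0.138 to 0.016 (doxorubicin against sham), from -0.021 to 0.121 (MitoQ against doxorubicin) and from -0.084 to 0.063 (MitoQ against sham).

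A fit without sham replicate 2 and doxorubicin replicate 3 together was added after seeing the data. These libraries were picked for their high and low enzyme levels, so the direction it gives is set by that choice and supports nothing. After doxorubicin, 24 of the 28 genes were then higher and 4 lower (median 0.105), with Fdps at 0.015 and Soat1 at 0.021. For MitoQ against doxorubicin the median was -0.021, with Stard4 at -0.002, and for MitoQ against sham it was 0.068.

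Over all genes, where edgeR called 0 in each comparison, DESeq2 called 44 after doxorubicin, 5 for MitoQ against doxorubicin, 2 for MitoQ against sham and 41 for any difference. Without a filter the counts were 1, 2, 0 and 3, and at an adjusted p under 0.1 there was 1 after doxorubicin. Leaving out 1 library gave 0 to 1, 0 to 3, 0 to 3 and 0 to 4, the upper values without MitoQ replicate 2. The settings for any difference were also added after seeing the data. The cause of these differences was not tested.

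The deviations of same-numbered libraries had correlations from -0.495 to 0.359, so no consistent pairing by number was seen. With 3 libraries a group, these correlations cannot exclude a pairing or a shared batch. A replicate block gave 2 genes after doxorubicin, and 0 of the 28. With 3 libraries a group, the SE of up to 0.27 limits what can be seen for the enzymes that vary most.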
